A study of Mus musculus with 6 samples.

Results

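The genes described here encode the machinery of bone morphogenetic protein (BMP), activin and transforming growth factor β (TGF-β) signaling. The set holds 49 genes of the 54232 in the count table, matched by gene symbol and grouped by role into 18 ligands, 11 receptors, 8 antagonists, 8 Smads and 4 Id target genes. Their transcripts were measured by RNA-seq in primary stromal cells from mouse uterus, 3 libraries from WT mice and 3 from Pbrm1 cKO mice. Pbrm1 encodes a subunit of a SWI/SNF chromatin remodeling complex, and the comparison asks which transcripts differ in stromal cells when it is deleted. In Pbrm1 cKO mice floxed Pbrm1 alleles are removed by Cre expressed from the progesterone receptor locus (PR-IRES-cre), so every cell that expresses this receptor, also outside the stroma, can lose the gene. The labels call the control mice WT, and the study describes Pbrm1 fl/fl mice as the source of its control cells. Mice were 8 to 12 weeks of age, and uteri were taken on day 4 of pseudopregnancy, although 1 label field speaks of pregnancy. Each preparation pooled 5 to 10 uterine horns, was digested with enzymes, plated in serum-containing medium for 4 h and lysed 2 h after a medium change, so the RNA comes from freshly plated cells that were not induced to decidualize.

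BMPs, activins, TGF-βs and the more distant growth and differentiation factors are secreted dimers that assemble type I and type II receptor kinases on the cell surface. BMP receptors phosphorylate Smad1, Smad5 and Smad9, activin and TGF-β receptors phosphorylate Smad2 and Smad3, and both groups of Smads enter the nucleus with the shared partner Smad4. Smad6 and Smad7 feed back on the receptors, secreted antagonists such as follistatin, noggin and gremlin trap ligands, and the Id genes are classical transcriptional targets of BMP signaling. In the uterus, BMP2 made by stromal cells around the implantation site is known for its part in decidualization, and BMP receptors are needed in the stroma for early pregnancy.

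Total counts were 13253575 to 18338667 per library. Pbrm1, the targeted gene, was at 1354, 1385 and 1677 normalized counts (scaled by library size factors) in WT and at 397, 459 and 451 in Pbrm1 cKO, a log2 fold change of -1.76 ± 0.13 (SE, adjusted p = 5.19e-40). The second principal component, with 5.57% of the variance of the most variable genes, put WT replicate 1 away from WT replicates 2 and 3. The stromal marker Vim stood at 31774.5 to 36871 normalized counts in WT and 27268 to 29136 in Pbrm1 cKO. It was called lower (log2 fold change -0.27 ± 0.09, adjusted p = 0.0124). Pdgfra, at 13916 to 15047 in WT and 16372 to 17884 in Pbrm1 cKO, was the 1 stromal marker called higher (0.23 ± 0.08, adjusted p = 0.0216). The summed level of 12 leukocyte markers was 4238 to 9116 in WT and 36850 to 38237 in Pbrm1 cKO, and all 12 were called higher. Of 10 endothelial markers 4 were lower and 1 higher (sum 1772 to 5037 in WT and 1645 to 1828 in Pbrm1 cKO), of 13 stromal markers 6 were lower and 1 higher (111559 to 128993 and 86553 to 93127), and of 8 smooth muscle markers 3 were lower (55387 to 59838 and 53441 to 55526). Of 12 epithelial markers 3 were higher (1984 to 3535 and 3546 to 3719), with the gland marker Foxa2 at the floor of 3 counts or fewer in all libraries, and of 6 pericyte markers 1 was higher and 1 lower (2758 to 4152 and 3693 to 4054). In these bulk libraries a smaller number of cells of a type and less RNA per cell cannot be told apart, and p-values measure the spread between pooled preparations, which the labels do not describe as separate cultures.

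Of the 49 genes, 47 had a count and 45 could be tested. In Pbrm1 cKO cells 6 of the 45 were called higher and 21 lower at an adjusted p under 0.05 (DESeq2, Benjamini-Hochberg adjustment over all genes), and 18 did not pass. Among all 17474 genes tested, 31.1% were called, 15.9% higher and 15.2% lower. Among genes whose normalized counts averaged 100 or more, 22 of 34 from the set were called, beside 41.7% of all such genes. The median log2 fold change of the 45 was -0.24, beside -0.000744 for all tested genes. The normalized counts of WT and Pbrm1 cKO did not overlap for 31 of the 45, beside 48.6% of all tested genes. Of the 27 called genes, 2 that rose (Tgfb1, Bmpr1b) and 7 that fell (Bmp2, Lefty1, Tgfbr3, Fst, Grem1, Smad6, Smad9) had a fitted change of at least 2-fold. Among all tested genes, 11.2% were called with a change of that size in either direction. The calls were made against no change and not against 2-fold, and 12 of the 27 called changes were smaller than 1.5-fold. By role, the counts higher and lower were 2 and 8 of 15 tested ligands, 2 and 3 of 11 receptors, 0 and 4 of 7 antagonists, 1 and 3 of 8 Smads and 1 and 3 of 4 Id genes.

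**Figure D1:**
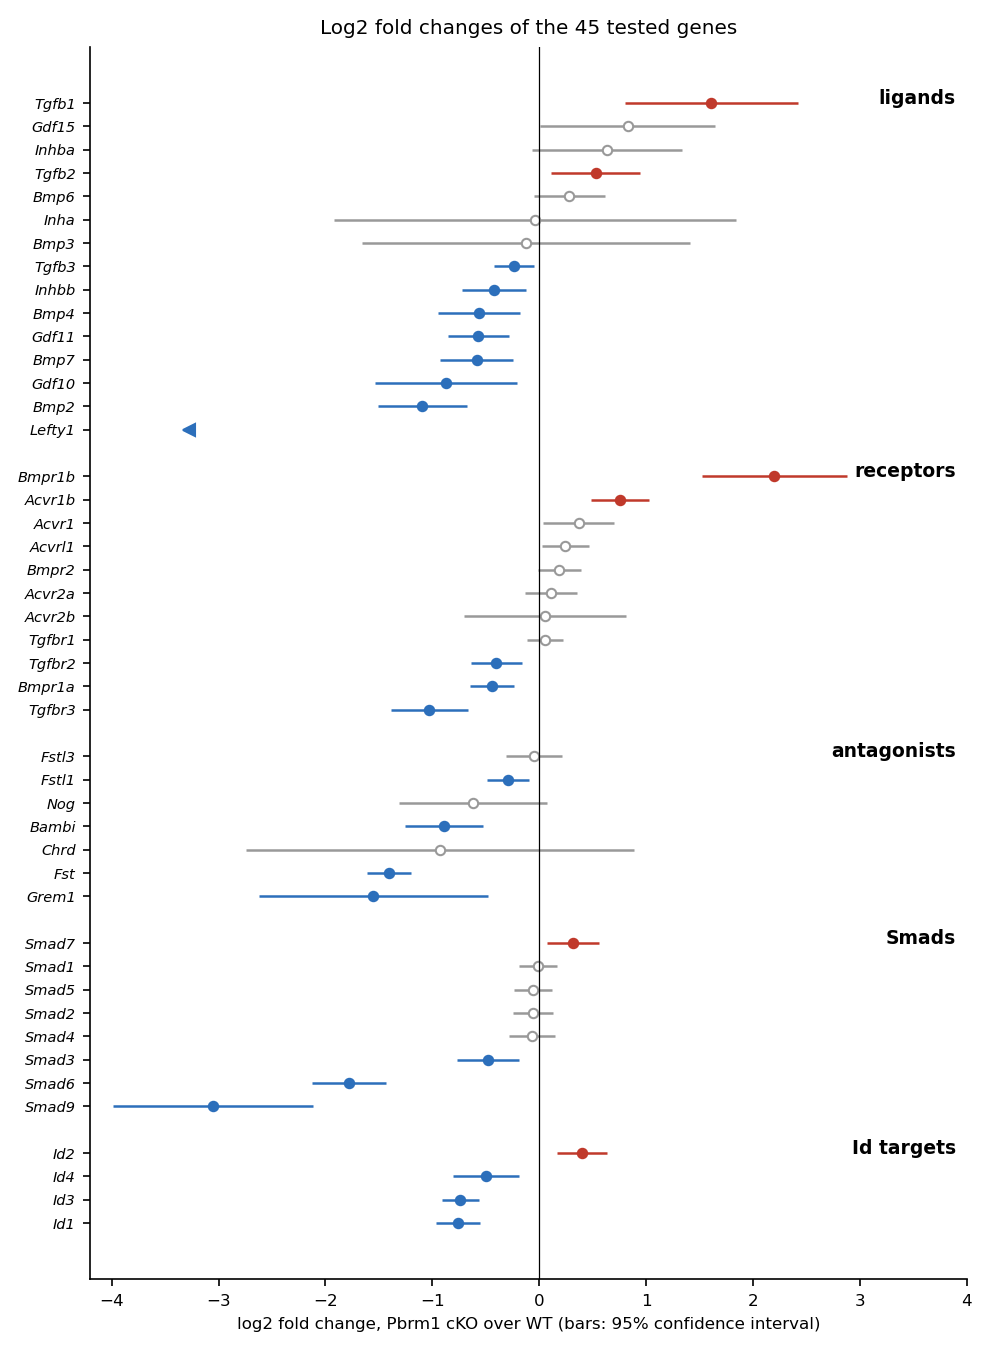
Log2 fold change (Pbrm1 cKO over WT) of each tested gene by role, with its 95% confidence interval on the horizontal axis, red for genes called higher, blue for genes called lower and open grey for genes that did not pass. The arrowhead for Lefty1 marks a bound of -3.28 in place of a value; the antagonists all lie left of 0 and the Id genes split, with Id2 alone to the right.

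The TGF-β ligands did not move together. Tgfb1, which encodes the most widely expressed TGF-β, was at 145, 224 and 390.2 normalized counts in WT cells and 797, 807 and 712 in Pbrm1 cKO. The lowest Pbrm1 cKO library was thus well above the highest WT library, which was replicate 3. Tgfb1 rose 3.05-fold (log2 fold change 1.61 ± 0.41, SE, adjusted p = 6.51e-04), and the value was 2.06 on the log2 scale without WT replicate 3 and between 1.33 and 2.06 over all fits that left out a library. The leukocyte marker sum moved with the same contrast, and within WT it was lowest in replicate 1 (4238, with Tgfb1 at 145) but close in replicates 2 and 3 (9116 and 8869, with Tgfb1 at 224 and 390.2). The part of these cells in the Tgfb1 difference was not tested. Tgfb2 was at 156, 269 and 272 in WT and 368, 326 and 311 in Pbrm1 cKO and rose by 0.53 ± 0.21 on the log2 scale (adjusted p = 0.0418). Tgfb3 was at 1549.8, 1442 and 1584 in WT and 1348, 1298 and 1236 in Pbrm1 cKO, without overlap, and fell by 0.24 ± 0.10 (adjusted p = 0.0419). Both small changes sat close to the threshold: Tgfb2 was no longer called without WT replicate 1 or without any 1 of the Pbrm1 cKO libraries (0.31 to 0.58), and Tgfb3 without WT replicate 1 or 3 or without any 1 of the Pbrm1 cKO libraries (-0.26 to -0.20). Both lost their call without independent filtering and with the length trend removed, Tgfb2 also with edgeR (0.48 to 0.53 over these refits) and Tgfb3 also with TMM size factors (-0.24 to -0.20). Per kilobase of exon, Tgfb1 made up 9.09% ± 3.75 of the TGF-β ligand counts of WT cells and 25.8% ± 0.776 of those of Pbrm1 cKO cells (SD, n = 3). Tgfb3 held 83.5% ± 5.16 and 64.5% ± 0.663 and was the most abundant of the 3 ligands in every library.

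Activin subunit transcripts were among the most abundant of the set. Inhba, which encodes the βA subunit of activin A, was at 17373, 20692 and 37446 normalized counts in WT cells and 39480.4, 40416 and 37067 in Pbrm1 cKO. WT replicate 3 lay inside the Pbrm1 cKO range and the other WT libraries far below it. The log2 fold change of 0.63 ± 0.36 did not pass (adjusted p = 0.183). It was called without WT replicate 3, at 1.03 on the log2 scale, and it was also called, at 0.71, when limma gave each group its own spread. Inhbb, the βB subunit, was at 20512, 14015 and 13687 in WT and 12604, 11786 and 11618 in Pbrm1 cKO. It fell by 0.42 ± 0.15 on the log2 scale (adjusted p = 0.0205), with WT replicate 1 far above the other libraries, and without that replicate it was still called, at -0.21. It was not called without any 1 of the Pbrm1 cKO libraries (-0.45 to -0.39), nor by edgeR (-0.42). Inha, the subunit that turns an activin into an inhibin, had 2 to 6 counts in every library and did not pass. As a share of the subunit counts per kilobase, Inhba was at 36.1%, 49.6% and 64.5% in WT and 67.6%, 69.5% and 68.0% in Pbrm1 cKO, so every Pbrm1 cKO library held a larger Inhba share than any WT library.

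Of the BMP ligands averaging 100 or more normalized counts, 3 fell and 1 did not pass, beside 41.7% of all such genes called in either direction. Bmp2 was at 155, 215 and 231 normalized counts in WT cells and 102, 91.1 and 89.1 in Pbrm1 cKO. All Pbrm1 cKO libraries were below the lowest WT library. Bmp2 fell 2.14-fold (log2 fold change -1.09 ± 0.21, SE, adjusted p = 3.31e-06), with -1.25 to -0.98 over the fits that left out a library. Bmp4, which is expressed in many mesenchymal tissues, was at 135, 159 and 156 in WT and 108, 102 and 93.8 in Pbrm1 cKO and fell by 0.56 ± 0.19 (adjusted p = 0.0152). Bmp7, at 229.8, 321 and 295 in WT and 200.3, 187 and 176 in Pbrm1 cKO, fell by 0.59 ± 0.18 (adjusted p = 0.0042). Neither gene overlapped between groups, but Bmp4 was not called without WT replicate 2 or 3 or Pbrm1 cKO replicate 2 or 3 (-0.57 to -0.51), and Bmp7 not without WT replicate 2 (-0.49). Bmp6 had 204, 224 and 284 in WT and 275, 279.7 and 311 in Pbrm1 cKO, overlapping ranges, and a log2 fold change of 0.28 ± 0.17 that did not pass (adjusted p = 0.218), although it was called at 0.43 without WT replicate 3. Bmp3 had 4 to 9 counts per library and Bmp5 1 to 4. The BMP ligand levels per kilobase summed to 255 ± 36.3 normalized counts for WT and 194 ± 4.41 for Pbrm1 cKO, and the Bmp6 share of the sum was 23.9% ± 2.33 and 38.2% ± 3.05, respectively (SD, n = 3).

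Of the remaining ligands Lefty1, Gdf10 and Gdf11 moved down, Gdf15 did not pass, and Lefty2 and Nodal had 0 counts. Lefty1, which encodes a secreted inhibitor of Nodal, had raw counts of 22, 19 and 32 in WT and 0 in all 3 Pbrm1 cKO libraries. Against a floor of 3 counts per library it was at least 9.69-fold lower in Pbrm1 cKO (adjusted p = 2.4e-07). Its neighbour Lefty2 and Nodal itself had 0 counts in all 6 libraries, which allows up to 0.164 to 0.226 CPM depending on the library. Of the 50-base stretches of Lefty1 transcripts 17.9% also occur in Lefty2, and reads that map to both places were left out of the counts. Gdf11, a close relative of myostatin, was at 361, 355 and 324 normalized counts in WT cells and 255, 233 and 213 in Pbrm1 cKO and fell by 0.57 ± 0.14 (adjusted p = 5.51e-04). Gdf10 was at 53.4, 53.3 and 41.1 in WT and 31.6, 23.97 and 25.3 in Pbrm1 cKO, a log2 fold change of -0.87 ± 0.34 (adjusted p = 0.0337) that was lost in every fit that left out a library except the one without WT replicate 3 (-0.995 to -0.792). Gdf15, a stress-induced ligand, was at 17.1, 23.3 and 16.2 in WT and 42.4, 32.0 and 26.3 in Pbrm1 cKO, and its log2 fold change of 0.83 ± 0.42 did not pass (adjusted p = 0.124) although the groups did not overlap; edgeR's quasi-likelihood test called it at 0.83.

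**Figure D2:**
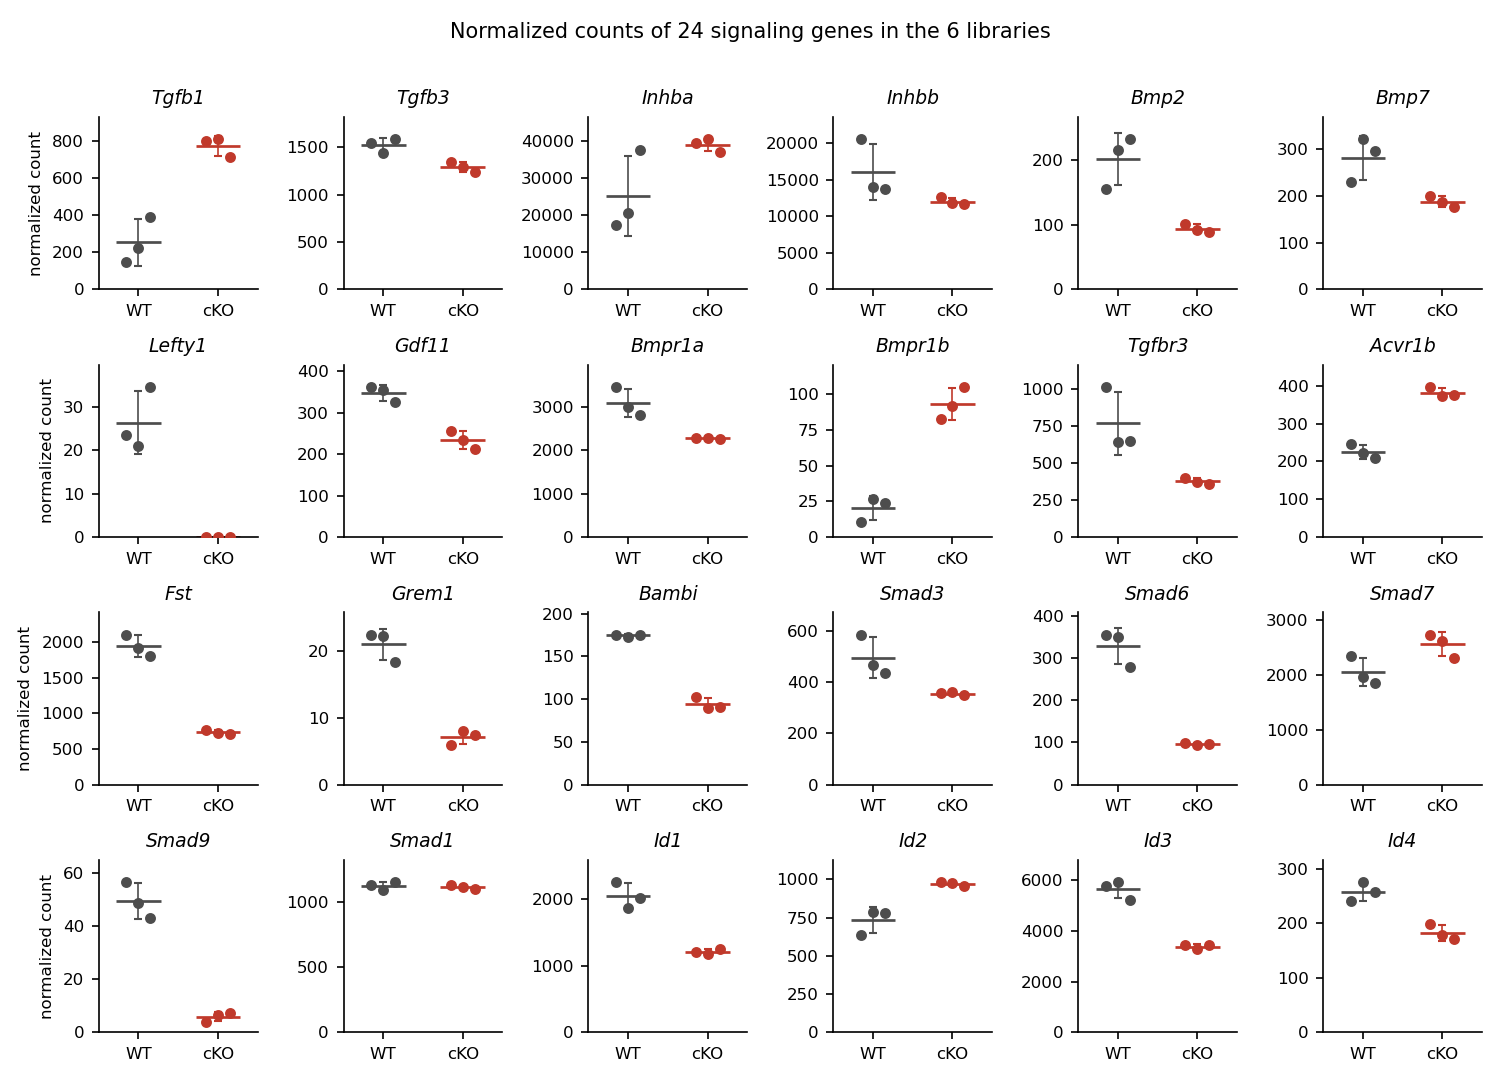
Normalized counts of selected genes in each library; each panel is 1 gene with its own vertical axis from 0, points are libraries in replicate order from left to right, horizontal lines are group means and whiskers are 1 SD (n = 3). Tgfb1, Bmpr1b, Acvr1b and Id2 lie higher in all Pbrm1 cKO libraries, Inhba and Smad7 overlap between groups, and Lefty1, Fst, Smad6 and Smad9 lie far lower.

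Among type I receptors Bmpr1a and Bmpr1b went in opposite directions. Bmpr1a, a broadly expressed BMP type I receptor, was at 3462, 3013 and 2817 normalized counts in WT cells and 2289, 2285 and 2266 in Pbrm1 cKO. It fell by 0.44 ± 0.10 on the log2 scale (adjusted p = 1.53e-04), and the study singled out this gene in these same libraries, so its direction is not independent evidence. Bmpr1b, a second BMP type I receptor with a more restricted expression, was at 10.7, 26.6 and 23.8 in WT and 82.9, 91.9 and 105 in Pbrm1 cKO. It rose 4.59-fold (log2 fold change 2.20 ± 0.35, SE, adjusted p = 4.02e-09), with no overlap and with 1.89 to 2.43 over the fits that left out a library. Per kilobase, Bmpr1a still exceeded Bmpr1b by far in Pbrm1 cKO cells, at 359 ± 1.94 against 15.6 normalized counts, and its share of the type I receptor counts was 51.3% ± 2.76 in WT cells and 39.4% ± 0.587 in Pbrm1 cKO cells. Acvr1b, the activin type I receptor ALK4, was at 246, 222 and 209.7 in WT and 397, 373 and 374 in Pbrm1 cKO and rose 1.69-fold (0.76 ± 0.14, adjusted p = 9.29e-07). Its share of type I receptor counts was 5.24% to 5.55% in WT and 9.29% to 9.65% in Pbrm1 cKO. The other type I receptors did not pass. Acvr1, the receptor ALK2, had a log2 fold change of 0.37 ± 0.17 (adjusted p = 0.0873, called at 0.46 without WT replicate 3), the endothelial receptor Acvrl1 had 0.25 ± 0.11 (adjusted p = 0.0809, called by edgeR at 0.25) and Tgfbr1 had 0.05 ± 0.09 (adjusted p = 0.712).

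Of the type II receptors and coreceptors, the 2 that bind TGF-β fell. Tgfbr2, the TGF-β type II receptor, was at 4585, 4049.7 and 3428 normalized counts in WT cells and 3200.4, 3043 and 2891 in Pbrm1 cKO, a fall of 0.40 ± 0.12 on the log2 scale (adjusted p = 0.00456) that was not called without Pbrm1 cKO replicate 3 (-0.36). Tgfbr3, or betaglycan, presents TGF-β2 to its receptor and is a coreceptor for inhibin. It was at 1011, 643 and 645 in WT and 398, 369.9 and 359 in Pbrm1 cKO and fell 2.04-fold (-1.03 ± 0.18, adjusted p = 3.33e-07). WT replicate 1 was the highest library, and without it the log2 fold change was -0.78, still called. The other type II receptors did not pass. Bmpr2 had a log2 fold change of 0.19 ± 0.10 (adjusted p = 0.148) without overlap between groups, Acvr2a 0.11 ± 0.12 (adjusted p = 0.567) and Acvr2b 0.05 ± 0.39 (adjusted p = 0.941). Acvr2b was near 30 counts in most libraries, and its 95% confidence interval of -0.70 to 0.81 was wide, whereas that of Tgfbr1 ran from -0.11 to 0.22.

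Of the 7 antagonists tested 4 were lower and 0 higher, beside 15.2% and 15.9% of all tested genes, so a count of 0 higher among 7 is near the background. Fst, or follistatin, which binds activins and several BMPs, was at 2099, 1917 and 1795 normalized counts in WT cells and 769.5, 722 and 708 in Pbrm1 cKO. The groups were far apart, and Fst fell 2.64-fold (log2 fold change -1.40 ± 0.11, SE, adjusted p = 3.79e-38) with -1.46 to -1.34 over the fits that left out a library. Bambi, a pseudoreceptor that lacks the kinase domain, was at 175, 173 and 175 in WT and 103, 89.5 and 91.0 in Pbrm1 cKO and fell by 0.89 ± 0.19 (adjusted p = 1.71e-05). Grem1, which traps BMP2 and BMP4, was at 22.4, 22.2 and 18.4 in WT and 5.92, 7.99 and 7.51 in Pbrm1 cKO, a log2 fold change of -1.55 ± 0.55 (adjusted p = 0.0183). Among the fits that left out a library the Grem1 call held only without WT replicate 3, with sizes between -1.64 and -1.43. Fstl1, a secreted relative of follistatin and the most abundant antagonist of the set, was at 19156, 19706 and 23098 in WT and 17468, 16868 and 16308 in Pbrm1 cKO and fell by 0.29 ± 0.10 (adjusted p = 0.0139), not called without any 1 of the Pbrm1 cKO libraries (-0.31 to -0.26). Nog, or noggin, at 41.1 to 44.9 in WT and 23.5 to 35.5 in Pbrm1 cKO, did not pass (-0.62 ± 0.35, adjusted p = 0.183). Fstl3 did not pass either, with a 95% confidence interval of -0.31 to 0.21. Chrd, or chordin, had 2 to 11 counts per library, and Chrdl1 had at most 2 and was not tested.

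Of the 8 Smads 4 were called, beside 31.1% of all tested genes, and 4 did not pass, all with narrow intervals. Smad1, Smad2, Smad4 and Smad5 had log2 fold changes of -0.01, -0.06, -0.07 and -0.06, each with a standard error of 0.09 to 0.11, and the intervals of all 4 lay between -0.28 and 0.17. Smad3 was at 585, 467 and 435 normalized counts in WT cells and 356, 361 and 349 in Pbrm1 cKO and fell by 0.48 ± 0.15 on the log2 scale (adjusted p = 0.00548), the size being -0.34 without WT replicate 1. Smad9, the least abundant of the BMP-regulated Smads, was at 56.6, 48.8 and 43.2 in WT and 3.95, 6.39 and 7.51 in Pbrm1 cKO. It showed the largest fitted fall of any member with counts in both groups, 8.28-fold (log2 fold change -3.05 ± 0.48, SE, adjusted p = 3.27e-09), and -3.23 to -2.84 over the fits that left out a library. Smad1 and Smad5 made up most of the BMP-regulated Smads, whose levels per kilobase summed to 448 ± 13.7 for WT and 429 ± 9.23 for Pbrm1 cKO, and the Smad9 share of the sum was 2.06% ± 0.217 and 0.259% ± 0.0828.

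The inhibitory Smads moved apart. Smad6, which chiefly restrains BMP receptors and is itself induced by BMP signaling, was at 355, 349.6 and 279 normalized counts in WT cells and 97.7, 93.5 and 95.7 in Pbrm1 cKO. It fell 3.43-fold (-1.78 ± 0.18, adjusted p = 7.39e-22) with no overlap. Smad7, which restrains TGF-β and BMP receptors alike, was at 2341, 1954 and 1847 in WT and 2726, 2618 and 2305 in Pbrm1 cKO. The ranges overlapped, WT replicate 1 being above Pbrm1 cKO replicate 3, and the rise of 0.32 ± 0.12 (adjusted p = 0.0329) was not called without WT replicate 2 or 3 or Pbrm1 cKO replicate 1 or 2 (0.24 to 0.30). Smad6 took 17.6% to 20.1% of the inhibitory Smad counts per kilobase in WT and 4.80% to 5.53% in Pbrm1 cKO. Smad6 is also expressed in endothelium, and the endothelial marker Cdh5, at 774, 713 and 677 in WT and 190.4, 192 and 201 in Pbrm1 cKO, fell by 1.89 ± 0.13 (adjusted p = 2.4e-46) in the same contrast. Of the 10 endothelial markers 4 were lower and 1 higher, with sums of 1772, 5037 and 4388 in WT replicates 1, 2 and 3 and 1645 to 1828 in Pbrm1 cKO. The sum of WT replicate 1 thus lay inside the Pbrm1 cKO range, whereas Smad6 (355) and Cdh5 (774) were highest in that library. The part of endothelial cells in the Smad6 difference was not tested.

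**Figure D3:**
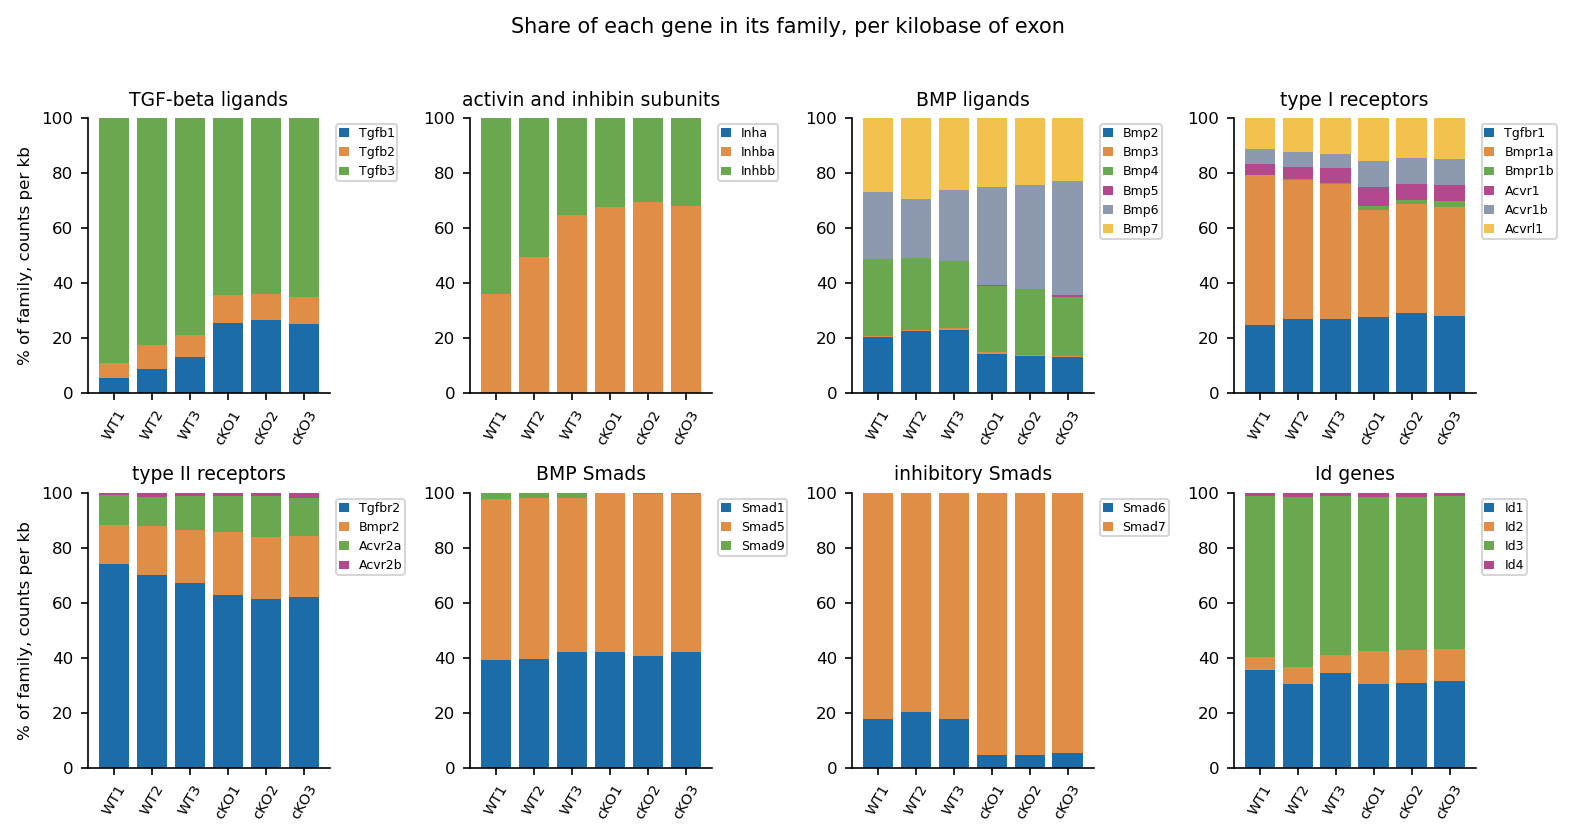
Share of each gene in its family in each library, in percent of the normalized counts per kilobase of exon, with 1 stacked bar per library. Tgfb1 and Inhba take larger shares in all Pbrm1 cKO libraries, and Bmpr1a, Smad6 and Smad9 smaller ones.

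Promoter windows of the set were read because Smad6 and the Id genes are textbook targets of BMP-regulated Smads. RefSeq promoter windows (GRCm38.p6), from 250 bases before to 50 after an annotated start, were found for 33 of the 49 genes, and those of Id1, Fst, Lefty1 and 13 others were not found. They were searched on both strands for the palindromic Smad box GTCTAGAC, the shorter Smad box GTCTG and the GC-rich palindrome GGCGCC, which is bound by BMP-regulated Smads. GTCTG cannot lie within GTCTAGAC, and none of the 3 is part of another. Shown are the genes called in the comparison that hold 1 of the 2 palindromes in the stretch printed and whose upstream bases lie in no annotated exon. They are Smad6 at chr9:64022050-64022309 (minus strand), Smad9 at chr3:54755332-54755591 (plus strand), Id4 at chr13:48260866-48261125 (plus strand) and Grem1 at chr2:113758639-113758898 (minus strand), each 260 bases from 5′ to 3′ with the first 10 transcribed bases at the end and the palindrome in capitals.
Smad6: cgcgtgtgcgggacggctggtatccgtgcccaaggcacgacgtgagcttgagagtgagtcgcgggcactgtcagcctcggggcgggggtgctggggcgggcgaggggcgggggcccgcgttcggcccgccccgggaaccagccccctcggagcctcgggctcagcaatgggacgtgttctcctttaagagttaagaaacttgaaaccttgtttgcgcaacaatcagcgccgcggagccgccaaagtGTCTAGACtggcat
Smad9: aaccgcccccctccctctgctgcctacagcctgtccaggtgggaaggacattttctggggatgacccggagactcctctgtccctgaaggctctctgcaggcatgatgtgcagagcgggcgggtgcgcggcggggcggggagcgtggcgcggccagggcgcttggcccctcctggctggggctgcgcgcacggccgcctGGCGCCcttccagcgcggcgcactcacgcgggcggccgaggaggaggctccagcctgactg
Id4: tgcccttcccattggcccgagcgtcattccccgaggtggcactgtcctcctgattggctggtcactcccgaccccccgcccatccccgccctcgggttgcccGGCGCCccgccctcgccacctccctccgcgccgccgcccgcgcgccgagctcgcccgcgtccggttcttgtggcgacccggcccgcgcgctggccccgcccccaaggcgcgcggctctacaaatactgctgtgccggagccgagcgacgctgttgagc
Grem1: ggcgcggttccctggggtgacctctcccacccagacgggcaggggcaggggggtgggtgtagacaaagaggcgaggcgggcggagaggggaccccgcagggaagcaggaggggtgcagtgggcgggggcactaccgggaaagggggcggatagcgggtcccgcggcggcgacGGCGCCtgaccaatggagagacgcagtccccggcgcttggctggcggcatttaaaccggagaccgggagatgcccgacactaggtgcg

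GTCTAGAC spans the Smad6 start, beginning 4 bases before it, and Smad6 was the only one of the 33 genes with this match, 1 of 39 windows (2.56%), beside 0.213% of 32851 mouse promoter windows of the same length. Some genes have several windows, 39 for the 33 genes, and the shares are per window. GGCGCC was present in 12 of the 39 (30.8%), beside 11.9% of all windows, and those 12 belong to 11 genes. Of those 11 genes, 2 had been called higher (Acvr1b and Id2), 5 lower (Bmpr1a, Gdf10, Grem1, Id4 and Smad9) and 4 had not passed (Bmpr2, Chrd, Smad5 and Tgfbr1), so the motif was found in genes of each kind. GTCTG was present in 18 of the 39 (46.2%) and in 49.6% of all windows. These matches describe letters in the windows and say nothing of binding in these cells.

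Of the 4 Id genes, all averaging 100 or more normalized counts, 3 were called lower and 1 higher, beside 41.7% of all such genes called in either direction. Id proteins are dominant-negative partners that keep basic helix-loop-helix factors off DNA. Id1 was at 2256, 1871 and 2014 normalized counts in WT cells and 1209, 1175 and 1254 in Pbrm1 cKO and fell 1.69-fold (-0.76 ± 0.11, adjusted p = 1.9e-11). Id3, the most abundant of the family, was at 5764, 5894 and 5216 in WT and 3432, 3274 and 3415 in Pbrm1 cKO and fell 1.67-fold (-0.74 ± 0.09, adjusted p = 2.08e-15). Neither overlapped between groups, and both stayed called whichever library was left out. Id4 was at 240.5, 275 and 258 in WT and 199, 178 and 171 in Pbrm1 cKO and fell by 0.50 ± 0.16 (adjusted p = 0.00719), not called without WT replicate 2 or Pbrm1 cKO replicate 2 or 3 (-0.48 to -0.45). Id2 went the other way, from 633, 787 and 783 in WT to 979.7, 976 and 956 in Pbrm1 cKO, a rise of 0.40 ± 0.12 (adjusted p = 0.00389). Of the 10 endothelial markers 4 were lower and 1 higher in the same contrast. All 12 leukocyte markers were higher (summed level 4238 to 9116 in WT and 36850 to 38237 in Pbrm1 cKO). The part of either cell type in the Id differences, the Id2 rise included, was not tested. The summed Id level per kilobase was 5273 ± 226 in WT and 3375 ± 75.4 in Pbrm1 cKO, and the Id2 share of it was 4.73% to 6.37% in WT and 11.5% to 12.2% in Pbrm1 cKO (n = 3).

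Compared per kilobase of exon, the most abundant transcripts of the set in WT cells were Fstl1 (4203 ± 434 normalized counts), Inhba (3939 ± 1684) and Inhbb (3777 ± 905), which did not differ beyond their spread, followed by Id3 (3141 ± 201) and Id1 (1765 ± 168). In Pbrm1 cKO cells Inhba stood apart at 6101 ± 270, above Fstl1 (3435 ± 118), Inhbb (2821 ± 124), Id3 (1884 ± 48.7) and Id1 (1045 ± 33.8). These are levels with their SD over 3 libraries and not differences tested between genes.

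Leaving out each of the 6 libraries in turn gave 16 of the 27 called genes that were called every time, and the same 16 kept their call in the other 7 refits that tested for any change. They were Tgfb1, Bmpr1b, Acvr1b and Id2 among those that rose and Bmp2, Gdf11, Lefty1, Bmpr1a, Tgfbr3, Fst, Bambi, Smad3, Smad6, Smad9, Id1 and Id3 among those that fell. The other 11 lost their call in at least 1 of the leave-out fits and none of them changed direction. Besides Tgfb2 and Tgfb3, Gdf10 and Smad7 lost theirs without independent filtering (-0.87 and 0.32).

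**Figure D4:**
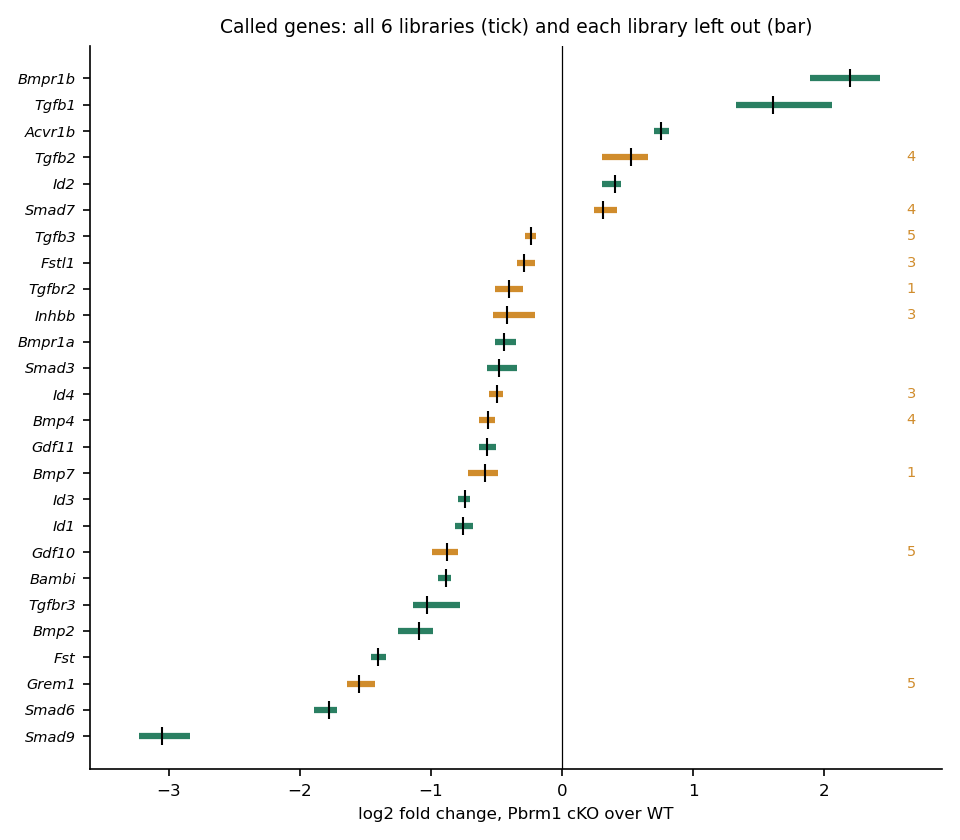
Log2 fold change of each called gene from all 6 libraries (black tick) and its range when each library is left out in turn (bar), on a linear axis. Green bars mark genes called in all 6 leave-out fits and orange bars genes that were not, with the number of fits that lost the call at the right; no bar crosses 0, and Lefty1 is omitted because its Pbrm1 cKO counts are 0.

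A further 82 genes of the same pathways were examined beside the 49, of which 66 could be tested, with 29 higher and 10 lower (59.1% called, beside 31.1% of all tested genes, of which 15.9% were higher and 15.2% lower). Among those averaging 100 or more normalized counts 37 of 53 were called (69.8%, beside 41.7% of all such genes). The median log2 fold change of the 66 was 0.23, and these lists too were chosen with results of these data known. Among 7 other ligands tested, 1 was higher and 3 lower. Gdf3, a ligand that acts through activin receptors and is also made by macrophages, went from 6.41, 30.0 and 22.7 to 308, 330.0 and 376 normalized counts, 17.2-fold higher (log2 fold change 4.11 ± 0.30, adjusted p = 8.22e-40), in a contrast in which all 12 leukocyte markers rose too; their part in it was not tested. Bmp8a fell by 0.42 ± 0.14 (adjusted p = 0.00812), a call lost without WT replicate 2 or Pbrm1 cKO replicate 2 or 3 (-0.42 to -0.39). Of 4 further receptors and coreceptors tested, the repulsive guidance molecules Rgma and Rgmb, which are BMP coreceptors, were higher by 0.94 ± 0.17 and 0.88 ± 0.16 (adjusted p = 6.57e-07 and 9.07e-07). Of 7 other antagonists, 2 were higher and 2 lower. The BMP-binding Twsg1 fell by 0.35 ± 0.10 (adjusted p = 0.00312, not called without Pbrm1 cKO replicate 2, -0.305). Nbl1 rose by 0.55 ± 0.14 (adjusted p = 3.25e-04), as did the proteoglycan Bgn by 0.41 ± 0.13 (adjusted p = 0.00622, not called without Pbrm1 cKO replicate 1 or 2, 0.36 to 0.37).

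Of 14 genes that store and release latent TGF-β 8 were higher and 2 lower, and all 10 of these were among the 13 averaging 100 or more normalized counts (76.9%, beside 41.7%). Ltbp1, which tethers latent TGF-β to the matrix, was at 3835, 3251 and 2938 normalized counts in WT cells and 7908, 7615 and 6987 in Pbrm1 cKO, 2.25-fold higher (1.17 ± 0.12, adjusted p = 2.64e-21). Nrros, which anchors latent TGF-β1 on macrophages and microglia, rose by 1.79 ± 0.26 (adjusted p = 2.98e-10). All 12 leukocyte markers rose in the same contrast (summed level 4238 to 9116 in WT and 36850 to 38237 in Pbrm1 cKO), and their part in the Nrros difference and in the count of this list was not tested. The fibrillin gene Fbn1 fell by 0.46 ± 0.09 (adjusted p = 1.52e-06), as did Itgb8, whose integrin activates latent TGF-β, by 1.04 ± 0.23 (adjusted p = 3.83e-05). Of 11 regulators of Smad activity, all averaging 100 or more, 5 were higher and 0 lower (45.5%, near the 41.7% of all such genes), among them Skil (0.52 ± 0.10, adjusted p = 8.58e-06), Ski (0.45 ± 0.14, adjusted p = 0.00469), Rnf111 (0.41 ± 0.12, adjusted p = 0.00274) and Tgif1 (0.26 ± 0.10, adjusted p = 0.044). Ski was not called without WT replicate 2 or Pbrm1 cKO replicate 2 (0.36 to 0.44), and of the 6 leave-out fits Tgif1 kept its call only in that without WT replicate 1 (0.21 to 0.29 in those that lost it); it was also not called without independent filtering or with the length trend removed.

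Of 14 TGF-β responsive genes 9 were higher and 1 lower, and among the 13 averaging 100 or more normalized counts 76.9% were called, beside 41.7% of all such genes. The part of the leukocyte markers, all 12 of which rose (summed level 4238 to 9116 in WT and 36850 to 38237 in Pbrm1 cKO), in these differences was not tested. Tgfbi was at 789.9, 740.3 and 812 normalized counts in WT cells and 3544, 3503 and 3352 in Pbrm1 cKO and rose 4.44-fold (2.15 ± 0.09, adjusted p = 4.2e-120). Pmepa1, which encodes a feedback inhibitor of TGF-β signaling, was at 2537, 2037 and 2618 in WT and 6704, 6625 and 6341 in Pbrm1 cKO and rose 2.73-fold (1.45 ± 0.11, adjusted p = 3.43e-35). The collagen gene Col1a1 fell by 0.69 ± 0.14 (adjusted p = 5.65e-06). Of 9 BMP responsive genes tested 2 were higher and 2 lower (44.4% called, beside 31.1% of all tested genes), and these 4 were among the 5 averaging 100 or more normalized counts. Wnt4, a factor of the decidual response that the study also singled out in these libraries, so that its direction is not independent evidence, was at 429.7, 347 and 486 in WT and 229, 197 and 214 in Pbrm1 cKO and fell by 0.98 ± 0.17 (adjusted p = 5.36e-08). Atoh8 fell by 0.40 ± 0.16 (adjusted p = 0.0487), a call that held only without WT replicate 3 among the leave-out fits (-0.451 to -0.252 in the others), and that was also lost with TMM size factors, without independent filtering and with the length trend removed. Tbx3 rose by 0.85 ± 0.15 (adjusted p = 8.27e-08), and Runx2 by 0.46 ± 0.16 (adjusted p = 0.0196, not called without WT replicate 3 or Pbrm1 cKO replicate 1 or 2, 0.35 to 0.43, nor with the length trend removed, 0.337). The difference between the branches was not itself tested.

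**Figure D5:**
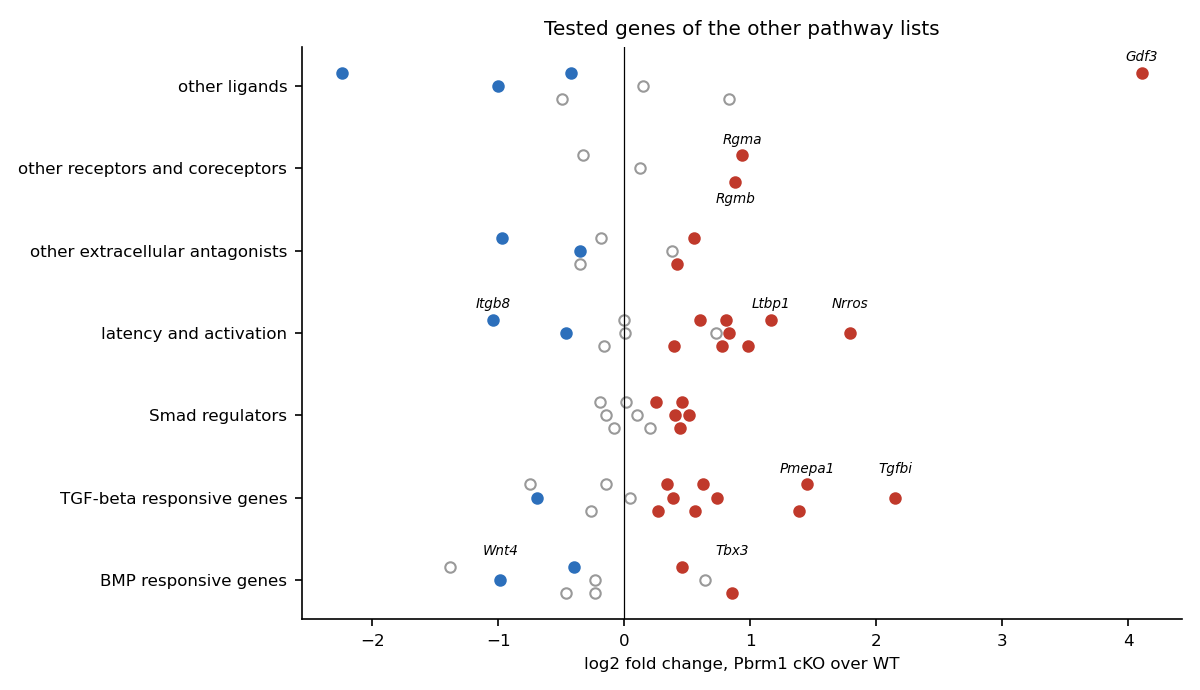
Log2 fold change (Pbrm1 cKO over WT) of the tested genes of 7 further pathway lists, each point 1 gene, red for called higher, blue for called lower and open grey for not passing; the vertical offset within a list has no meaning. Most called genes of the latency and TGF-β responsive lists lie right of 0, whereas the BMP responsive list has points on both sides.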

How the data were processed

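RNA was measured in 3 WT and 3 Pbrm1 cKO preparations. Per the study, single-end reads were trimmed with cutadapt and mapped to GRCm38 with HISAT2. The authors assigned them to GENCODE mouse genes by strand (reverse setting) with featureCounts 1.6.4, and the values they deposited are raw counts, 1 column for each replicate beside the exon length. Reads that map to several places, or to several genes, are left out by default, so the 7 genes of the set that share over 5% of their 50-base stretches with another gene (Tgfb3, Bmp5, Lefty1, Lefty2, Acvr2a, Fstl1, Fstl3) may be undercounted. The labels describe a kit with random priming and removal of unwanted transcripts, the study poly(A) selection.

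The 49 genes, the 82 further pathway genes and the marker lists were chosen with earlier results of these data known. Differential expression was tested in R 4.3.3 with DESeq2 1.42.0 (Wald test, median-of-ratios size factors, no covariates, all 6 libraries sharing 1 dispersion per gene), adjusted over all genes at 0.05. All adjusted p-values are from DESeq2 unless another tool is named, and log2 fold changes are unshrunken. Depth was 13253575 to 18338667 counts. The floor for scarce genes was 3 counts in a library; it covers counting error only. The pipeline was tested on simulated data. Alternatives were edgeR 4.0.16, limma 3.58.1, other scaling and filters, a length correction (lowess), a replicate block, a test against 0.58 and leaving out each library. Genes named are all 49, the 2 highest and 2 lowest called genes with a mean of at least 50 in each further list, Pbrm1 and up to 2 markers per list; 2 genes that the rule names are not reported here.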

Additional observations from a re-analysis of the deposited data

How the results depend on the processing

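The counts of called genes stayed within 1.5 times under edgeR, limma, TMM size factors, both filtering settings, the length correction and the replicate block. Tested against a log2 fold change of 0.58, 1 gene of the set was higher (Bmpr1b) and 4 lower (Lefty1, Fst, Smad6 and Smad9). Tgfb1, Bmp2, Tgfbr3 and Grem1, with fitted changes of at least 2-fold, did not pass that test. Of the further pathway genes 6 were higher and 2 lower. Leaving out each library gave 4 to 8 higher and 13 to 19 lower genes of the set (fewest lower without Pbrm1 cKO replicate 3), 23 to 29 higher and 6 to 12 lower further pathway genes (fewest lower without Pbrm1 cKO replicate 2), and a median log2 fold change of the members of -0.343 to -0.201.

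The replicate block gave 5 higher and 16 lower genes of the set; Tgfb2, Tgfb3, Bmp4, Gdf10, Grem1 and Id4, and of the further genes named Atoh8, Bmp8a, Runx2 and Tgif1, were not called with it. Same-numbered libraries correlated at 0.114, -0.0515 and 0.0028, and WT replicates 2 and 3 each correlated best with a Pbrm1 cKO library of another number, so the numbers were not taken to pair the samples.

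Directions turned only for genes that had not passed, and the cause was not tested. With the length trend removed, the Tgfbr1 log2 fold change was -0.0167, the Bmpr2 log2 fold change -0.0381, the Fstl3 log2 fold change 0.00917 and the Inha log2 fold change 0.0723, and with the replicate block Inha was at 0.00608. Over the leave-out fits the value ran from -0.428 to 0.146 for Bmp3, -0.372 to 0.364 for Inha, -0.094 to 0.342 for Acvr2b, -0.149 to 0.00819 for Fstl3, -0.0368 to 6.53e-05 for Smad1 and -0.13 to 0.0264 for Smad4. Bmp3, Inha and Chrd had at most 11 counts in any library.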
